A study of Mus musculus with 23 samples.

Results

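RNA contacts of wild-type CTCF (WT) and of CTCF with a partly deleted zinc finger 1 (ΔZF1) were compared in mouse embryonic stem cells (ESCs), as crosslink sites per gene and per transcript part. The comparison covered 8 of the 23 libraries of the series, 4 with WT and 4 with ΔZF1. All of these cells were E14 ESCs in which both copies of CTCF carried an AID2 degron. For 24 hours, 1 µM 5-Ph-IAA removed the endogenous protein and 1 µg/mL doxycycline switched on a rescue CTCF with a Flag tag. Cells received 400 mJ/cm2 of UV light at 254 nm, and RNA bound to the rescue protein was taken from nuclei with an antibody to Flag. The rescue was WT or ΔZF1, which the labels call a CTCF-ZF1 mutant, and it was placed in the Tigre locus of separately engineered lines. The protein and the line therefore cannot be told apart. The background was a set of 4 ESC libraries without UV (noXL), made from the WT rescue line with the same degradation and induction. A noXL control of the ΔZF1 line was not analysed here. Where values in neural progenitor cells (NPCs) are given, they come from 3 WT and 4 ΔZF1 libraries of the same lines after 2 days of differentiation.

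CTCF binds DNA through an array of zinc fingers, halts cohesin and so anchors chromatin loops, and it also binds RNA, with zinc finger 1 among the parts of the protein linked to RNA contact. In iCLIP2 the UV light joins protein to RNA at single nucleotides, most readily at uridines, and reverse transcription stops beside the joined nucleotide. Nuclear RNA holds unspliced transcripts, so sites fall in introns as well as in exons.

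The values are single-nucleotide sites that the authors called with PureCLIP on the 4 merged libraries of a group, so each group is 1 list without replicate error. The separate libraries were not analysed here, and no test between the groups was made. Intervals are 95% intervals for counting error only, and the read depth behind the lists is unknown. Most markers went with the label of the cells. Of 10 ESC markers, 9 had at least 5 sites in both lists, with 1291 WT, 645 ΔZF1 and 336 noXL sites in sum. All 5 trophoblast and all 4 two-cell-like markers had 0 sites in both lists, and so did 4 of 5 neural progenitor markers and 4 of 5 primitive endoderm markers. The exceptions were Nes, an intermediate filament gene, with 2 WT sites, and Lama1, a basement membrane laminin chain, with 206 WT and 58 ΔZF1 sites. In longer marker lists, 3 of 15 primitive endoderm genes had at least 20 sites in both lists together, with 290 WT and 80 ΔZF1 sites in sum. So had 3 of 18 neural progenitor genes (85 and 61), 1 of 13 trophoblast genes (37 and 23) and 0 of 13 two-cell-like genes.

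To compare genes, sites on the strand of a gene within its body were counted, and ratios were scaled to the sites in genes of each list, 429119 for WT and 217770 for ΔZF1. Without this scaling all log2 ratios of ΔZF1 to WT would be lower by 0.98. Ratios on exon or intron sites alone were scaled to the exon or intron sites of each list instead. Of 55413 annotated genes, 6518 reached a minimum of 20 sites when both lists were added. A gene with few sites in 1 list could reach it only through the other list. The scaled log2 ratio was at or below -1 in 355 of them (5.45% of the genes compared) and at or above 1 in 446 (6.84%), and the median was 0.04. Outside chromosome 11, 232 of 5911 genes were low (3.92%) and 442 were high (7.48%). On chromosome 11, 123 of 607 genes were low (20.3%) and 4 were high (0.659%). The quartiles over all genes compared were -0.33 and 0.39. Since chromosome 11 differed, it is described apart. Site counts rise with the amount of an RNA as well as with binding, and in bulk libraries fewer cells with an RNA and less RNA per cell cannot be told apart.

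**Figure D1:**
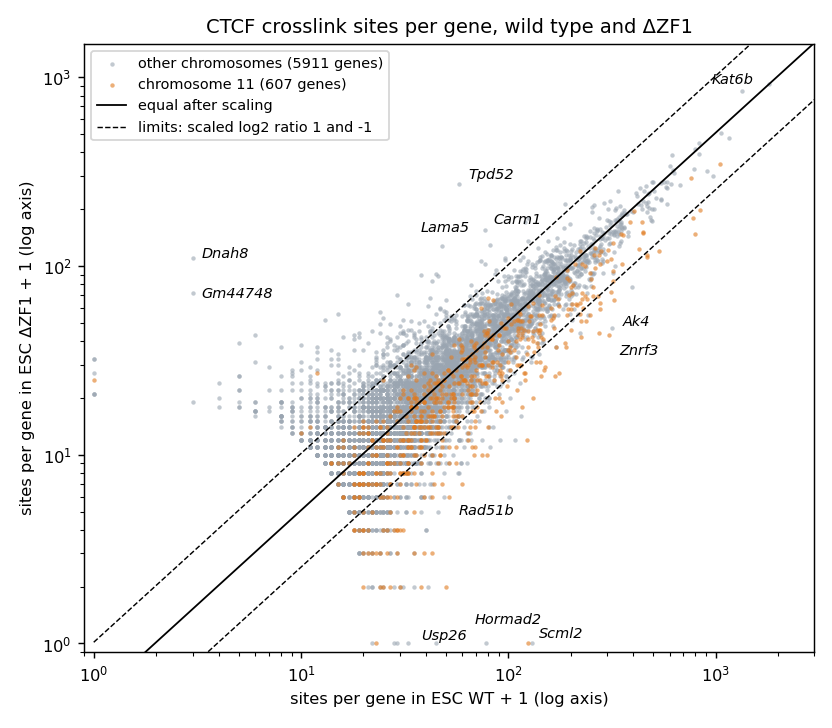
Sites per gene in the ESC WT list (horizontal) and the ESC ΔZF1 list (vertical), each plus 1 on log axes, for the 6518 genes compared. The solid line marks equality after scaling, the dashed lines mark log2 ratios of 1 and -1, and orange points are the 607 genes of chromosome 11, most of which lie under the solid line.

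Transcript parts were compared first. The share of sites in coding exons was 34.6% for WT, 35.8% for ΔZF1 and 32.1% for noXL, and that in introns was 31.7%, 30.0% and 38.1%. The 3′ UTRs held 15.6% of WT and 14.2% of ΔZF1 sites, and the 5′ UTRs 7.54% and 8.23%. Both lists were thus laid out alike, and the shares of single parts differed by little. The number of WT sites per ΔZF1 site was 2.13 in 3′ UTRs, 2.06 in introns, 1.88 in coding exons and 1.78 in 5′ UTRs, and it was lowest, at 1.59, in antisense and in intergenic sequence. Between introns and coding exons the gap narrowed to 1.88 against 1.83 without chromosome 11, and the order turned with a minimum score. The difference between the UTRs was carried by uridines. At uridines the ratio was 2.59 in 3′ UTRs and 2.04 in 5′ UTRs, and at other bases it was 1.48 and 1.67.

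ΔZF1 sites lay on uridines less often than WT sites in every transcribed part. In coding exons, 60.0% of WT, 47.8% of ΔZF1 and 24.0% of noXL sites were on a uridine. In 3′ UTRs the shares were 71.0%, 58.3% and 31.3%, and in introns 62.4%, 51.3% and 31.6%. The gap was smallest in the GC-rich 5′ UTRs, with 35.3%, 30.9% and 23.0%. In each part ΔZF1 lay between WT and the list without UV. The letters around the sites differed in the same way. A run of 5 uridines, UUUUU, was found within 10 nt of 8.96% of WT, 5.90% of ΔZF1 and 3.69% of noXL sites. Some words rich in G were more common around ΔZF1 sites than around WT sites, with 2.58% against 3.55% for GGCUG and 1.49% against 2.11% for GGCGG, and noXL sites had 3.01% and 1.63%. Words were read on the strand of the site only, and a word counted once per site. G and C together made up 45.0% of the letters around WT sites and 47.4% around ΔZF1 sites.

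A WT site was called kept where a ΔZF1 site lay within 5 nt on its strand. This held for 16.2% of WT sites (16.1 to 16.4), and for 2.29% after the positions were shifted by 500 or 1000 nt. The share is bounded by the shorter length of the ΔZF1 list and describes positions, not binding strength. It differed widely between transcript parts, with 41.3% in 5′ UTRs, 17.3% in coding exons, 11.8% in 3′ UTRs and 8.07% in introns. Intergenic and antisense WT sites, which were few, were kept in 39.0% and 37.5% of cases. Sites near a noXL site followed the same order, so the kept share was also taken over WT sites away from noXL sites, where it was 13.3% in all, 29.3% in 5′ UTRs and 6.71% in introns.

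By distance to a transcript start, the kept share was highest within 2 nt, although 44606 of the 73308 kept sites lay more than 500 nt from a start. Within 2 nt of an annotated start, 64.0% of 9069 WT sites were kept, and 47.6% of them lay near a noXL site. The kept share was 39.8% from 6 to 20 nt, 25.0% from 21 to 100 nt and 12.8% beyond 500 nt. Within the 5′ UTR it was 55.0% up to 20 nt from a start and 27.3% farther on. Sites within 20 nt of a start made up 6.12% of the WT, 7.01% of the ΔZF1 and 5.63% of the noXL list. Strong and clustered sites were also kept more often. The share was 8.42% among the 20% of WT sites with the lowest PureCLIP scores and 32.3% among the 20% with the highest. It was 9.77% for WT sites that stood alone and 69.9% for those in runs of 5 or more sites, and such runs made up 1.98% of the WT list, 0.283% of the ΔZF1 list and 0.0736% of the noXL list. By base, 22.9% of WT sites on G, 17.8% on C, 14.9% on U and 14.1% on A were kept. Away from noXL sites these shares were 15.4%, 13.2%, 13.4% and 10.9%. The order also depended on the part, since in coding exons 19.4% of WT sites on U and 14.0% of those on other bases were kept, and in 5′ UTRs 35.6% and 44.4%. The word GGCGG lay around 3.42% of kept and 1.11% of other WT sites.

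**Figure D2:**
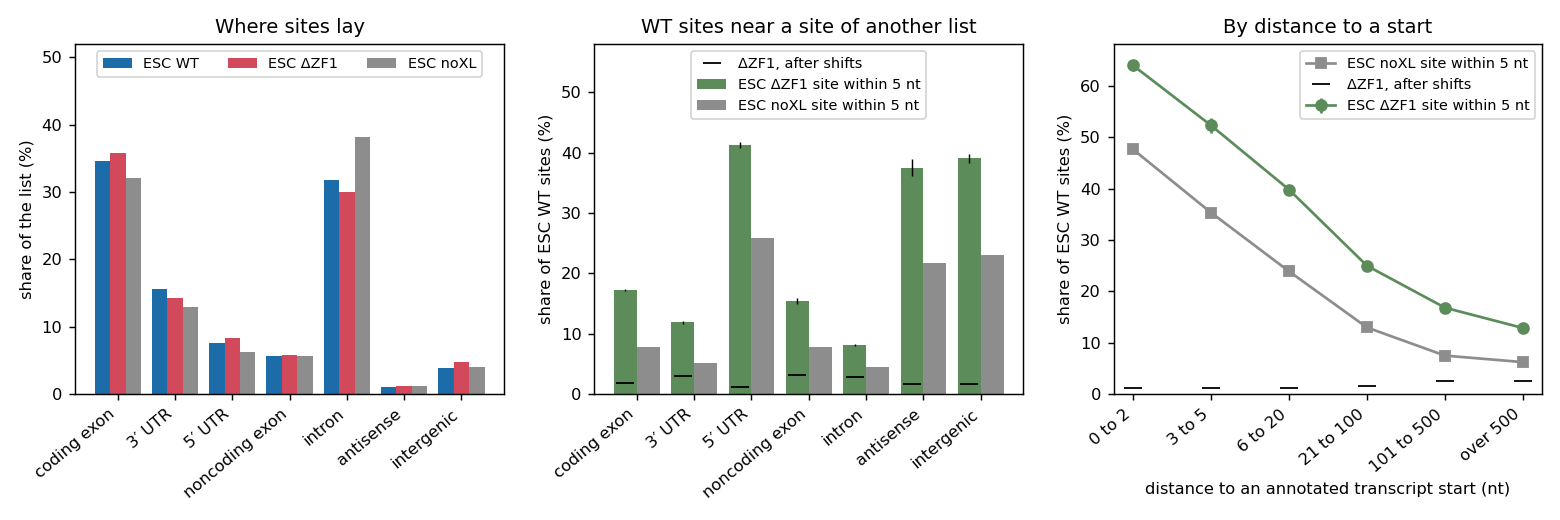
Left, share of each ESC list in each transcript part. Middle, share of ESC WT sites in each part with an ESC ΔZF1 site (green, with 95% Wilson intervals) or an ESC noXL site (grey) within 5 nt on the strand, with the ΔZF1 share after shifts as black marks. Right, the same by distance to an annotated transcript start, where the ΔZF1 share falls from 64.0% within 2 nt to 12.8% beyond 500 nt.

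Kept 5′ UTR sites are shown for 4 genes, because in each the best-scoring site was the same nucleotide in both lists. Rps15a encodes a ribosomal protein, Tet1 an enzyme that oxidises 5-methylcytosine, Etv5 an ETS transcription factor and Rnf17 a Tudor protein of germ granules. The sequences are of mm10, 5′ to 3′ on the strand of the gene, with the crosslinked nucleotide as the capital letter and T for uridine. The sites lie at chr7:118116152-118116172 (minus), chr10:62892850-62892870 (minus), chr16:22439608-22439628 (minus) and chr14:56402679-56402699 (plus), all in 5′ UTRs.
Rps15a: gcccggcccaCtctctttctg
Tet1: cggcaggcagAtcttttctga
Etv5: gcagggcggcGcagagtccgg
Rnf17: cccctcagcgCtgagaggagc
The sites of Rps15a and Tet1 were over 20 nt from an annotated start. Those of Rps15a, Etv5 and Rnf17 also lay near a noXL site, and that of Tet1 did not. None of these 4 nucleotides is a uridine, although 40167 of the 73308 kept WT sites were on uridines. Rn7sk, the small nuclear RNA that holds back the elongation factor P-TEFb, had 41 WT, 31 ΔZF1 and 0 noXL sites, and 78.0% of its WT sites were kept.

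Chromosome 11 differed from the other chromosomes most in its introns. It held 23642 WT and 5960 ΔZF1 intron sites, a ratio of 3.97 (3.86 to 4.08), while the other autosomes and X ranged from 1.72 to 2.08 (19 chromosomes). In exons the ratio on chromosome 11 was 2.44 (2.39 to 2.49), and the others ranged from 1.78 to 2.08. Both values of chromosome 11 lay outside the range of the others, and the distance was larger in introns. Among the exon parts it was 2.44 in coding exons, 2.58 in 3′ UTRs and 2.08 in 5′ UTRs, with 1.83, 2.09 and 1.76 elsewhere. Against noXL, WT intron sites on chromosome 11 numbered 2.49 to 1, within the range of 2.12 to 2.74 on the other chromosomes. ΔZF1 intron sites numbered 0.627 per noXL site, below the range of 1.07 to 1.46. The noXL list comes from the WT line, so these ratios cannot show whether the WT or the ΔZF1 line is unusual on chromosome 11. WT and noXL had more intron sites there (23642 and 9506) than on any other chromosome, next being chromosome 6 with 12569 and 4768. ΔZF1 had 5960, against 6495 on chromosome 6 and 6059 on chromosome 8. The WT to ΔZF1 ratio in the introns of chromosome 11 was 4.95 at uridines and 2.96 at other bases.

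**Figure D3:**
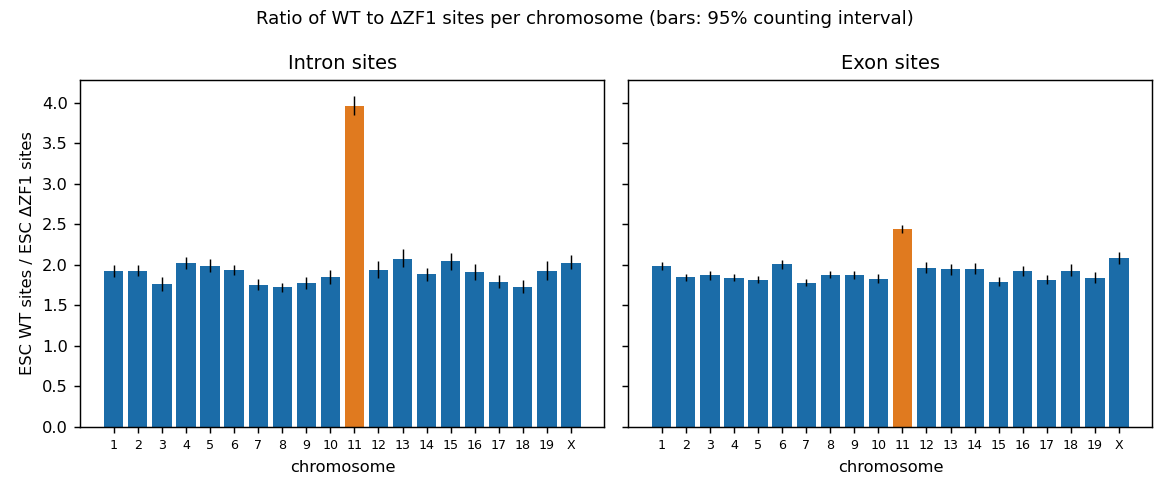
ESC WT sites divided by ESC ΔZF1 sites on each autosome and X (Y is not drawn), for intron sites (left) and exon sites (right), with 95% counting intervals. Chromosome 11 (orange) stands at 3.97 in introns and 2.44 in exons, above all other chromosomes drawn in both panels.

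Per gene, the same split was seen. With intron sites alone, 128 of 247 genes of chromosome 11 were low (51.8%), with a median of -1.09, while elsewhere 141 of 1694 were (8.32%), with a median of 0.10. With exon sites alone, 85 of 587 genes of chromosome 11 were low (14.5%), with a median of -0.33, while elsewhere 293 of 5666 were (5.17%), with a median of 0.03. The lower ratio of ΔZF1 to WT sites ran along the chromosome. In pieces of 20 Mb the gene median lay between -0.79, from 20 to 40 Mb, and -0.28, beyond 120 Mb, and the intron ratio of WT to ΔZF1 between 3.12 and 4.69. In NPCs the chromosome 11 ratio was 2.22 in introns, where the others ranged from 0.776 to 1.18, and 2.39 in exons, where they ranged from 1.70 to 1.87. The NPC lists come from the same lines as the ESC lists, so they do not separate the line from the protein, and the part of the line in the chromosome 11 values was not tested.

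Genes of chromosome 11 show what this looked like along a transcript. Znrf3, a membrane ubiquitin ligase that removes Wnt receptors, had 231 WT and 8 ΔZF1 sites in introns and 74 and 34 in exons, for a gene ratio of -1.85 (-2.35 to -1.42). Brca1, a tumour suppressor of homologous recombination, had 104 and 4 in introns and 120 and 46 in exons. Psme4, a proteasome activator, had 353 and 51 in introns and 180 and 68 in exons. In each the exon-only ratio lay above -1, with -0.15 for Znrf3, -0.42 for Brca1 and -0.45 for Psme4. Usp34, a deubiquitinase of the Wnt pathway, and Med13, a subunit of the Mediator kinase module, were chosen after their values were seen, and had 455 against 56 and 88 against 2 intron sites, with 322 against 122 and 137 against 69 exon sites.

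The 5 lowest genes of chromosome 11 with at least 50 sites had fewer exon sites in ΔZF1 than in WT too. Hormad2, a protein of the meiotic chromosome axis, had 124 WT, 0 ΔZF1 and 52 noXL sites, at least 41.3-fold fewer before scaling when a floor of 3 sites is set in the ΔZF1 list. Dhx40, a DEAH-box helicase, had 49, 1 and 17 sites, with a ratio of -3.67. Mtmr3, a phosphoinositide phosphatase, had 122, 11 and 94. All 3 had noXL sites, which come from the WT line, in numbers above their ΔZF1 sites. Ascc2, a ubiquitin-binding subunit of the ASC-1 complex, had 51, 5 and 31 sites, and Thoc5, a subunit of the THO complex of mRNA export, 59, 6 and 19. Hormad2, Mtmr3, Ascc2 and Thoc5 lie near each other, at chr11:4345814-4441105, chr11:4480868-4594863, chr11:4637747-4685699 and chr11:4895320-4928867, but Uqcr10, Nf2 and Nipsnap1, the compared genes between them, did not pass the limit. Of these Nf2, the merlin tumour suppressor, had 102 WT and 48 ΔZF1 sites (-0.09).

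The 5 highest genes of chromosome 11 with at least 50 sites held most of their sites in exons. Sec14l1, a lipid-binding protein, had 33 WT and 29 ΔZF1 sites (0.80), and Purb, a single-strand nucleic acid binder, 73 and 59 (0.68), all of them in exons. Mafg, a small MAF transcription factor, had 79 and 67 (0.74), Socs3, an inhibitor of JAK-STAT signalling, 35 and 28 (0.67), and Kif18b, a mitotic kinesin, 34 and 27 (0.66). None of these 5 reached the limit of 1. The 4 genes of chromosome 11 that did, named after their values were seen, were Ntn1, Jup, Pitpnc1 and Zrsr1. Ntn1, the axon guidance cue netrin 1, had 0 WT, 24 ΔZF1 and 4 noXL sites, and Jup, the junction protein plakoglobin, had 11, 26 and 3. Pitpnc1, a phosphatidylinositol transfer protein, had 10, 13 and 16, and Zrsr1 had 9, 12 and 9.

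Outside chromosome 11, the lowest genes fell into 2 kinds by where the sites were missing. The first kind lacked ΔZF1 sites along the whole gene. Scml2, a Polycomb-related protein of the male germline at chrX:161117193-161258213, had 129 WT, 0 ΔZF1 and 44 noXL sites, at least 43.0-fold fewer before scaling. Usp26, a testis deubiquitinase at chrX:51753959-51801233, had 77, 0 and 25 sites, at least 25.7-fold fewer. The WT sites of Scml2 were 60 in exons and 69 in introns, and those of Usp26 58 and 19. Rad51b, a gene of DNA repair, had 100 WT, 5 ΔZF1 and 37 noXL sites, a ratio of -3.09 (-4.60 to -2.09). Ppfia4, a liprin of synaptic scaffolds, had 107, 11 and 47 sites (-2.19), Uhrf2, a ubiquitin ligase that binds modified cytosine, 48, 5 and 16 (-2.05), and Prpf39, a U1 snRNP splicing factor, 81, 10 and 33 (-1.92). These 6 genes stayed past the limit in all 14 other settings tried. Ddost, a subunit of the oligosaccharyltransferase, had 62, 8 and 12 sites, and Eogt, an O-GlcNAc transferase of secreted proteins, 56, 7 and 21. Nearly all WT and ΔZF1 sites of both were in exons, while 7 noXL sites of Eogt were in introns.

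Intron sites of WT that were missing in ΔZF1 are shown for Scml2, Usp26, Hormad2 and Znrf3, 4 genes low in ΔZF1, because their best intron sites had neither a ΔZF1 nor a noXL site within 5 nt. They lie at chrX:161234401-161234421 (plus), chrX:51794451-51794471 (minus), chr11:4426619-4426639 (minus) and chr11:5418897-5418917 (minus), with the crosslinked nucleotide as the capital letter.
Scml2: aaagagctttTttgttactgc
Usp26: tgtgggatttTtccagtttct
Hormad2: taacttaattTtcttaggcaa
Znrf3: attaatttttTtgcttgttgt
All 4 crosslinked nucleotides are uridines (written T) within a run of uridines.

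The second kind lacked intron sites more than exon sites, and the exon-only ratio lay within the limits. Ak4, a mitochondrial adenylate kinase, had 242 WT, 14 ΔZF1 and 88 noXL sites in introns and 73, 32 and 16 in exons. Its gene ratio was -1.77 and its exon-only ratio -0.22. Rnf17 had 70 WT and 1 ΔZF1 intron sites and 44 and 14 exon sites, and Zfand3, a gene of an AN1-type zinc finger protein, 61 and 1 in introns and 29 and 10 in exons. Their exon-only ratios were -0.64 and -0.50. Lin52, a subunit of the MuvB cell cycle complex, had 47 and 3 intron sites and only 10 and 4 in exons, with an exon-only ratio of -0.19. Magi1, a scaffold of cell junctions, had 374 and 60 intron sites and 20 and 16 exon sites, and its ratio of -1.38 turned to 0.64 on exon sites alone. Ak4, Rnf17, Zfand3, Lin52 and Magi1 had more noXL than ΔZF1 intron sites, as the introns of chromosome 11 did.

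Genes with more ΔZF1 sites than the lists predict also split by transcript part. In Dnah8, a heavy chain of axonemal dynein, the list of WT held 2 sites, ΔZF1 109 and noXL 5, and 87 of the ΔZF1 sites were in exons, the farthest 189 kb from the start of the gene. Celsr1, a cadherin of planar cell polarity, had 12, 51 and 7 sites, and Lama5, a laminin chain of basement membranes, 47, 126 and 27, with 50 and 121 of the ΔZF1 sites in exons. Peg3, an imprinted zinc finger gene, had 28, 69 and 12 sites, and Wdfy3, an adaptor of selective autophagy, 17, 42 and 23. Dab2ip, a Ras GTPase-activating protein, had 15, 41 and 15, and Foxo3, a forkhead transcription factor of stress responses, 18, 43 and 16. These ratios ran from 2.19 for Foxo3 to 6.17 for Dnah8, and these 7 genes stayed past 1 in every other setting that gave them a value.

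In other genes the surplus was in introns. Tpd52, a tumour-associated membrane traffic protein at chr3:8925593-9004723, had 23 WT, 251 ΔZF1 and 18 noXL sites in introns and 34, 20 and 10 in exons. Of its ΔZF1 sites 233 lay in the first 50 kb of the gene, where WT had 20. In NPCs its introns held 5 WT and 70 ΔZF1 sites. Hmces, a sensor of abasic sites in DNA, had 6 and 43 intron sites and 17 and 13 exon sites, and Epb41l4a, a membrane-skeleton protein, 0 and 36 in introns and 14 and 19 in exons. Etv5 had 24 and 96 intron sites and 57 and 32 exon sites. Gm44748, an unnamed noncoding gene model, had 2 WT, 71 ΔZF1 and 6 noXL sites, 70 of the ΔZF1 sites in introns. Carm1, an arginine methyltransferase at chr9:21546894-21592623, was chosen after its values were seen. Its introns held 6 WT, 135 ΔZF1 and 17 noXL sites and its exons 70, 20 and 18, with a gene ratio of 2.00 (1.61 to 2.40). Of these intron sites 3 WT and 104 ΔZF1 sites lay in the first 20 kb of the gene. In NPCs the introns held 4 WT and 77 ΔZF1 sites. The Tigre locus, into which the rescue was placed, adjoins Carm1 in the mouse genome, and its part in these values was not tested. With exon sites alone Tpd52 (0.21), Hmces (0.58) and Etv5 (0.13) no longer reached the limit. Carm1, with 70 WT and 20 ΔZF1 exon sites, had no surplus of ΔZF1 sites in exons.

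**Figure D4:**
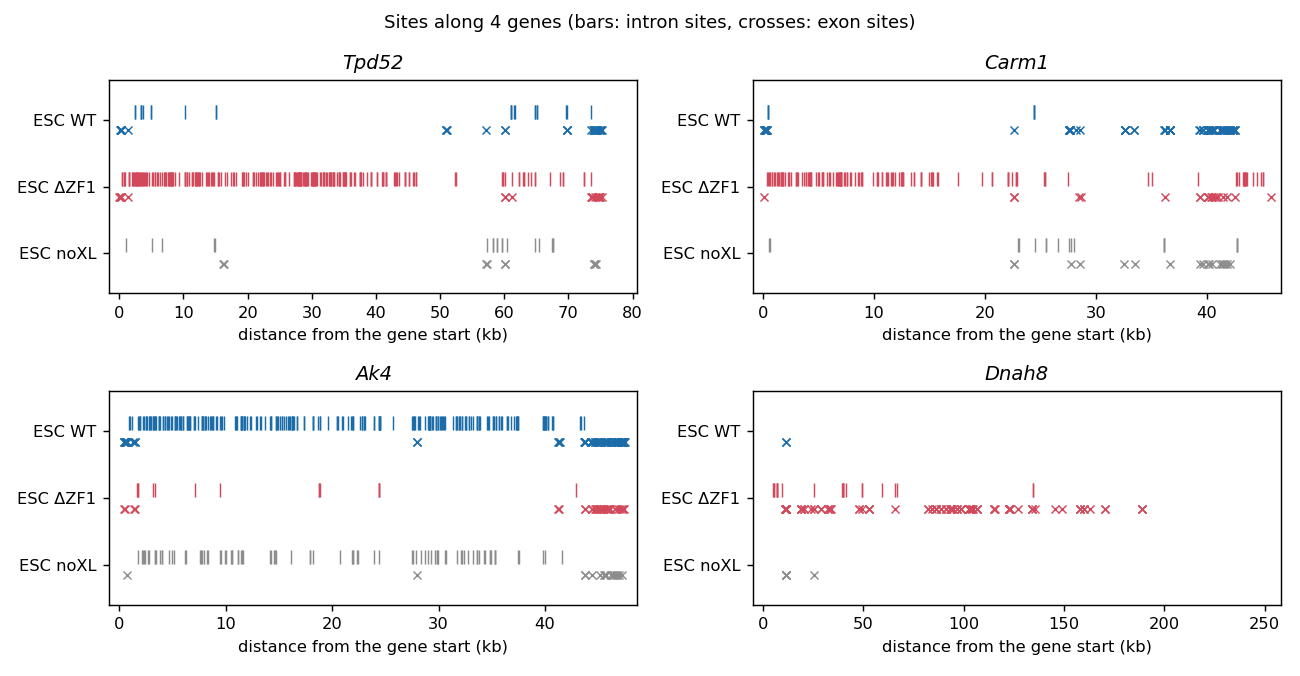
Sites along Tpd52, Carm1, Ak4 and Dnah8 in the ESC WT, ΔZF1 and noXL lists, by distance from the gene start in kb, with intron sites as bars and exon sites as crosses. ΔZF1 intron sites fill the first part of Tpd52 and Carm1, are few along Ak4 where WT has 242, and ΔZF1 exon sites run along Dnah8 where WT has 2 sites.

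Sites of ΔZF1 with the highest score in a gene are shown for genes with a surplus, Tpd52 for introns and Lama5 and Dnah8 for exons. They lie at chr3:8981761-8981781 (minus), chr2:180198941-180198961 (minus) and chr17:30758398-30758418 (plus), and none had a noXL site within 5 nt. The capital is again the crosslinked nucleotide.
Tpd52: ttgatgagttTcagtagggcc
Lama5: ccttggctatTtccacttccc
Dnah8: atcgcagacaGgtgtgcactg
The sites of Tpd52 and Lama5 are uridines and that of Dnah8 is a G.

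Gene functions were compared with 46 lists, of which 45 had a member with at least 20 sites. They were read against all genes, with 5.45% low, 6.84% high and a median of 0.04, or 0.07 outside chromosome 11. Lists and all genes were not matched by number of sites. Among lists of at least 10 compared members, proteasome subunits and basement membrane genes had the lowest medians. Of 40 proteasome genes compared, 34 had a ratio below 0, as had 47.7% of all genes compared. Of the 40, 5 were low and 0 were high, and the median was -0.42, or -0.39 without the 8 members on chromosome 11. The low members were Psme2 and Psme4, parts of activator complexes, with 18 WT and 2 ΔZF1 and with 533 and 119 sites, Psmb2 and Psma1, of the core, with 51 and 11 and with 62 and 14, and Psmd14, the deubiquitinase of the lid, with 127 and 30. Of 13 basement membrane genes 2 were low and 1 was high, with a median of -0.42, but the list was spread out. The low ones were Lamb1, a laminin chain, with 41 WT and 9 ΔZF1 sites, and Dag1, the receptor dystroglycan, with 99 and 24, while Hspg2, the proteoglycan perlecan, had 252 and 204 and Lama5 was among the highest genes. Its summed sites gave a ratio of 0.15 (0.03 to 0.28), of the opposite sign to the median.

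Most other lists of housekeeping machinery had medians a little below 0 and few members past a limit. Glycolysis enzymes (16 genes, 0 low, 1 high, median 0.19) and nucleolar proteins (30 genes, 0 low, 0 high, 0.07) did not, but both medians turned on exon sites alone, to -0.084 and -0.020, and at scores at or above the median, to -0.034 and -0.021. The median of glycolysis enzymes also turned on other bases than uridine (-0.079), and the median of nucleolar proteins on uridines (-0.018). Of 71 respiratory chain genes, 7 were low and 2 were high (median -0.20), and the lowest was Ndufc2, a subunit of complex I, with 21 WT and 1 ΔZF1 sites. Of 66 mitochondrial ribosomal protein genes 4 were low, 2 of them on chromosome 11, and 1 was high (-0.24), and this median turned to 0.04 on uridines alone. Of 82 cytosolic ribosomal protein genes none passed either limit (-0.20), and 35.6% of their WT sites were kept, against 16.2% over all WT sites. Of 26 genes of the MCM helicase and the replication fork 4 were low and 0 high (-0.23), the lowest being Rfc4, a clamp loader subunit, with 31 and 4 sites, and Rpa1, of the single-strand binding complex on chromosome 11, with 189 and 36. Translation factors (59 genes, 2 low, 0 high, -0.17), chaperonins and heat shock proteins (45 genes, 2 low, 1 high, -0.20), hnRNPs (31 genes, 0 low, 1 high, -0.18) and SR splicing factors (25 genes, 1 low, on chromosome 11, 0 high, -0.14) were alike. Of 28 DNA damage genes 3 were low (-0.18), Brca1, Rad50 and Trp53bp1, and the first 2 lie on chromosome 11.

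Germline and meiosis genes had the lowest median of the 45 lists. Only 8 of 35 had at least 20 sites, 6 of these were low, 0 were high, and the median was -2.04. Without Hormad2 and Tex14, the members on chromosome 11, 4 of 6 were low, with the same median. Besides Scml2, Hormad2, Usp26 and Rnf17, the low members were Dazl, an RNA-binding protein of germ cells, with 45 WT, 4 ΔZF1 and 3 noXL sites, and Tex14, of germ cell intercellular bridges, with 222, 55 and 99. Tex14, at -1.01, was past the limit in 9 of 14 other settings. Stra8, a gatekeeper of meiotic entry, had 43 and 17 sites (-0.31), and Stag3, a meiotic cohesin subunit, 135 and 75 (0.14). The list was drawn up with the first of these genes known to be low, so its count is a description of its members.

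Several lists of chromatin regulators and transcription factors had medians above that of all genes, and others did not. Of 108 Zfp zinc finger genes 3 were low and 13 were high, with a median of 0.31. The highest were Zfp369, with 0 WT and 26 ΔZF1 sites, and Zfp553, with 4 and 38. Of 22 corepressors and histone deacetylases 0 were low and 3 were high (median 0.35, but -0.02 for their summed sites, from -0.12 to 0.08), among them Tle3, a Groucho corepressor, with 11 and 31 sites, and Hdac4, a class IIa deacetylase, with 10 and 28. Of 31 histone lysine methyltransferases and demethylases 0 were low and 2 high (0.32), Ehmt2, the G9a enzyme, with 28 and 41 sites, and Kdm4c with 11 and 17. The CHD, INO80 and ISWI remodellers (19 genes, 1 low, 0 high) had a median of 0.035, and RNA polymerase II and Mediator genes (44 genes, 4 low, 1 high) one of -0.021. Architectural DNA-binding factors had a median of 0.21, which was -0.15 on exon sites alone. Polycomb genes had a median of 0.04, or 0.30 without chromosome 11, where Epop (34 and 7 sites) and Ezh1 (19 and 4) lie. Of 13 axon guidance and scaffold genes 1 was low and 4 were high (median 0.61, but 0.07 for their summed sites, from -0.08 to 0.21), among them Plxnb2, a semaphorin receptor, with 32 and 62 sites. Of 20 Wnt pathway genes, with a median of -0.12, 2 were low, Znrf3 and Tcf7, both on chromosome 11, and 5 were high, among them Axin1, the scaffold of the destruction complex, with 7 and 18 sites. Most of the high members had few WT sites, so their intervals were wide. Those with under 20 WT sites, such as Zfp369, Zfp553, Tle3, Hdac4, Kdm4c and Axin1, reached the minimum only with their ΔZF1 sites. Their high ratios follow in part from that minimum.

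**Figure D5:**
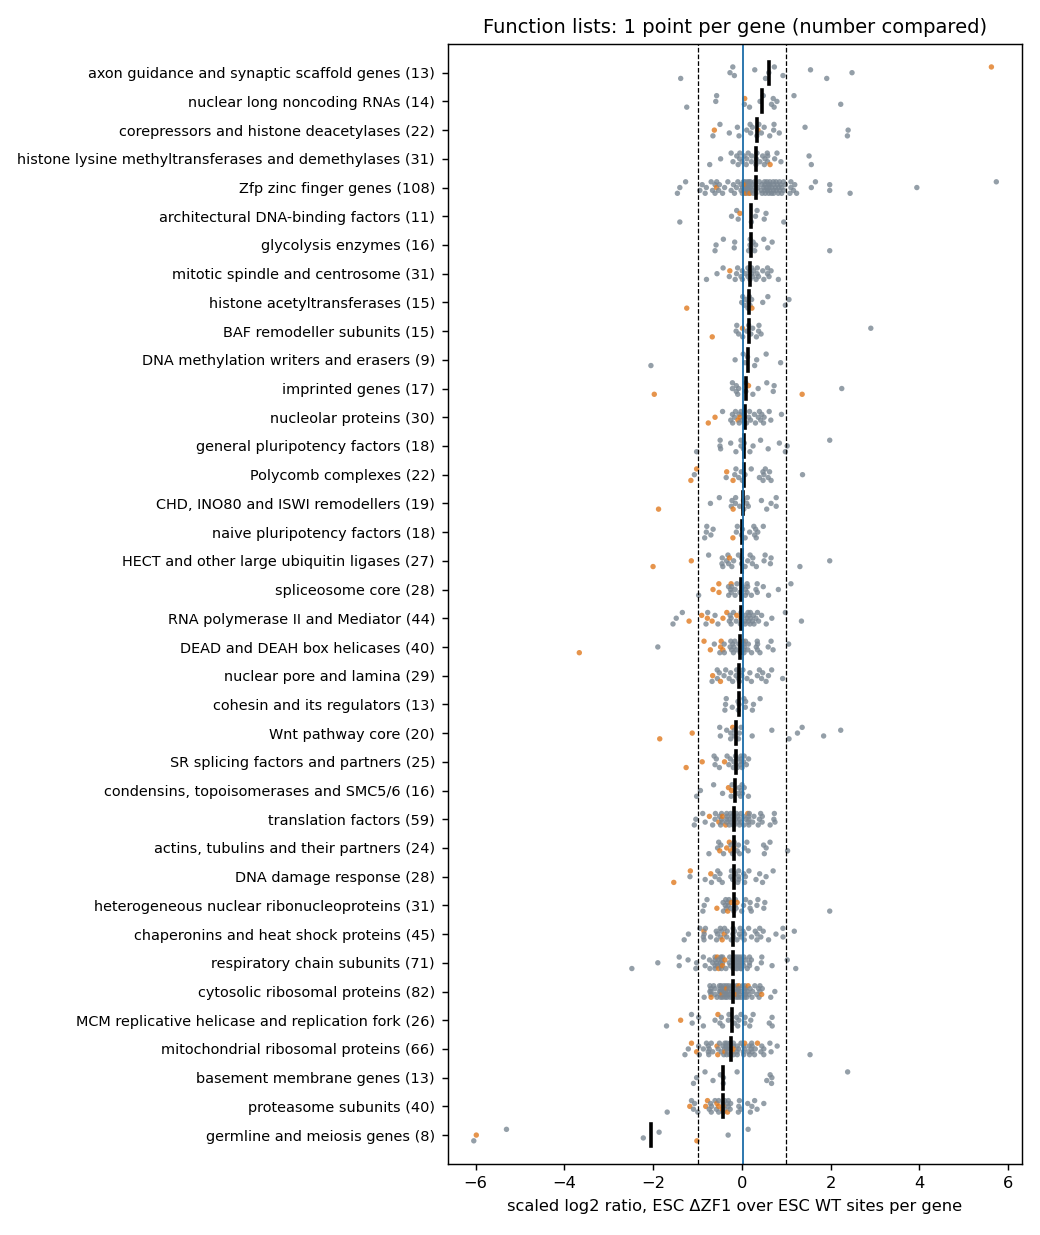
Scaled log2 ratios of ESC ΔZF1 to ESC WT sites for each compared gene (points, orange on chromosome 11) of the function lists with at least 8 compared members, with the median of the list as a black bar. The blue line is the median of all 6518 genes (0.04), the dashed lines are the limits of 1 and -1, and the lowest list is that of germline and meiosis genes.

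Genes of naive and general pluripotency and of cohesin had medians close to that of all genes, and formative and primed genes lay higher. Of 18 naive pluripotency genes none passed a limit, and the median was 0.00, or -0.36 on exon sites alone. Esrrb, an orphan nuclear receptor, had 460 WT and 263 ΔZF1 sites (0.17), Nanog 85 and 39 (-0.13) and Klf4 66 and 18 (-0.84). Of 18 general pluripotency genes 1 was low and 2 were high (0.04). The low one was Sox2, with 35 and 8 sites (-1.02), and the high ones were Lin28a, an inhibitor of let-7 maturation, with 17 and 35 (1.98), and Zscan10 with 33 and 34 (1.02). Of 6 formative and primed genes 3 were high (median 0.99), among them Etv5 and Lefty2 (22 and 24 sites). Of 13 genes of cohesin and its regulators none passed a limit (-0.06), with Rad21, the kleisin subunit, at 173 and 82, Wapl, the release factor, at 291 and 115, and Nipbl, the loader, at 129 and 78. Ctcf itself had 51 WT and 15 ΔZF1 sites in exons and 58 and 53 in introns, ratios of -0.75 and 0.92, which the counts cannot assign to the endogenous gene or the transgene.

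The same opposition of exons and introns was found in some of the genes with most sites. Kat6b, a histone acetyltransferase gene and the gene with most sites, had 241 WT and 60 ΔZF1 sites in exons (-1.04) and 1576 and 858 in introns (0.17), so that its overall ratio was -0.01 (-0.12 to 0.11). Huwe1, a HECT ubiquitin ligase, had 380 and 105 in exons (-0.90) and 781 and 368 in introns (-0.04), and Tet1 166 and 54 in exons (-0.66) and 453 and 266 in introns (0.28). Ncor1, the corepressor on chromosome 11, showed the reverse order, with 211 and 93 in exons (-0.23) and 834 and 251 in introns (-0.68). Atrx, a chromatin remodeller on the X chromosome, had 966 WT and 299 ΔZF1 sites in all (-0.71) and was lower in introns (-0.82) than in exons (-0.35).

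Gene classes differed less than single genes. Of 6321 protein-coding genes 348 were low and 428 high, with a median of 0.03. Of 62 lincRNA genes 2 were low and 10 were high (median 0.20), and of 15 antisense genes 0 were low and 2 high (0.31). Kcnq1ot1, the antisense RNA of an imprinted domain, had 198 WT, 166 ΔZF1 and 49 noXL sites (0.73), and Nespas, antisense at the Gnas domain, 100, 70 and 42 (0.47). Firre, a nuclear RNA from the X chromosome, had 186, 213 and 64 (1.17), and Tsix, the antisense of Xist, 329, 173 and 102 (0.06). Malat1, the abundant RNA of nuclear speckles, was low, with 41 WT and 8 ΔZF1 sites (-1.24). Of 14 nuclear long noncoding RNAs compared 1 was low and 2 were high, and the median was 0.44.

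The ratio moved with base composition. Outside chromosome 11, genes whose exons had up to 40% G and C had a median of -0.10, with 29 of 468 low and 11 high. Genes above 55% had a median of 0.30, with 25 of 927 low and 157 high. The classes between them had medians of -0.04, 0.04 and 0.17, rising with each step. The ratio of noXL to WT sites, scaled in the same way, had medians of -0.16 in the first class and 0.05 in the last, so the list without UV moved in the same direction over a smaller range. By gene length there was no such steady order, with medians from -0.02 for genes up to 5 kb to 0.14 for those over 100 kb. The part of base composition in the values of the function lists was not tested.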

How the data were processed

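CTCF iCLIP2 was performed by the authors on 4 libraries each for ESC WT, ESC ΔZF1 and ESC noXL. Reads were trimmed with Flexbar, aligned to mm10 with STAR, deduplicated with UMI-tools and merged by condition, and sites were called with PureCLIP (versions not given in the sources used here). Sites were deposited with the score of PureCLIP, which is not scaled to depth. The GRCm38 reference of the same build and GENCODE M21 were used. On the autosomes 1 to 19, X and Y, each site was assigned, in order, to coding exon, 3′ UTR, 5′ UTR, noncoding exon, intron, antisense or intergenic sequence. Sites counted for every gene body that held them on the strand. Ratios used a pseudocount of 1, a minimum of 20 sites in both lists together, and limits of 1 and -1. Intervals are 95% Wilson intervals, or derived from them.

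Ratios of sites near each other used 5 nt, and shifts of 500 and 1000 nt gave the background. The genes named were Ctcf, the 12 with most sites, the 3 with most sites of each function list and of each noncoding gene type, and, among genes with at least 50 sites and under 20% of them in another gene, the 12 lowest and 12 highest outside chromosome 11 and the 5 lowest and 5 highest on it. Other members of a list were named by their ratio after values were seen. A few genes that these rules name are not reported here. The comparison and the gene lists were chosen with earlier results of these data known. No test was made, since each group is 1 pooled list, and per-sample columns left unused numbered 0. Alternatives changed scaling, minimum, pseudocount, score, base, noXL sites, merging within 8 nt, overlapping genes and transcript part. The calculation was tested on simulated data. Scripts ran under Python 3.11.15 (numpy 2.4.6, pandas 2.3.3, scipy 1.17.1, matplotlib 3.10.9).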

Additional observations from a re-analysis of the deposited data

Results flagged for a closer look

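Genes with the opposite direction in ESCs and NPCs were looked for among those past a limit. Rad51b had a scaled log2 ratio of ΔZF1 to WT sites of -3.09 in ESCs, from 100 WT and 5 ΔZF1 sites, and of 1.52 in NPCs, from 31 and 60. Lin52 stood at -1.88 in ESCs, from 57 and 7 sites, and at 1.08 in NPCs, from 31 and 44. Magi1 stood at -1.38 in ESCs, from 394 and 76 sites, and at 0.59 in NPCs, from 559 and 559. Each value rests on 1 pooled list per group, and the difference between the cell types was not tested.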

How the results depend on the processing

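No paired analysis was possible because each group is 1 list of sites, called on merged libraries. The separate libraries were not analysed here, so none was left out in turn. Without scaling, genes lower in ΔZF1 than in WT numbered 3071 and genes higher 99. A minimum of 50 sites gave 143 and 144, and a minimum of 10 gave 580 and 703. With other bases than uridine 231 genes were high, and with intron sites alone, on which fewer genes reached the minimum, genes higher numbered 198. The count of low genes on other bases (243) and on introns (269), and both counts in all other settings tried, stayed within 1.5 times. The chromosome 11 median of -0.47 was -1.44 without scaling, -0.50 with the median gene set to 0, -0.53 when scaled to sites outside chromosome 11, -0.50 with a pseudocount of 0.5, -0.52 without sites near noXL, -0.33 on exons and -1.09 on introns. The ratio of WT to ΔZF1 sites in genes, 1.97, was 1.90 at scores at or above the median, 2.43 on uridines, 1.53 on other bases, 1.99 without sites near noXL, 1.78 after merging, 1.88 without chromosome 11, 2.06 in introns and 1.93 in exons. The kept share, 16.2%, was 16.4% at scores at or above the median, 11.9% on uridines and 14.6% on other bases when both lists were restricted, 13.2% without sites near noXL, 16.7% without chromosome 11, 6.60% at the same nucleotide, 28.8% within 20 nt and 14.0% beyond 20 nt from a start. Magi1 turned to 0.64 on exons and Lamb1, with 1 WT intron site, to 0.045 on introns. Of the genes named by the rules and past a limit, no other changed sign in a setting that gave it a value, while some within the limits did. Those outside the rules, such as Carm1 with 70 WT and 20 ΔZF1 exon sites, were not run in these settings. Of 33 lists with a median at least 0.1 from 0, 5 changed sign in at least 1 setting other than no scaling, namely glycolysis, architectural factors, mitochondrial ribosomal proteins, histones and snoRNA hosts. The intron and exon settings for counts, chromosome 11 and named genes, the intron and exon ratios, and the distance from a start were chosen after seeing the data, save the exon setting for genes. The unknown depth, the pooled lists and the lack of a ΔZF1 noXL control limit all values.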

Other observations

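Genes whose introns and exons differed most were chosen after their values were seen. Slc2a1, the glucose transporter GLUT1, had 68 WT and 12 ΔZF1 sites in exons and 0 and 10 in introns, and Fkbp9, a peptidyl-prolyl isomerase, 56 and 14 in exons and 6 and 37 in introns. Zfp57, a zinc finger protein that protects imprints, had 47 and 9 in exons and 2 and 16 in introns, and Cdx1, a caudal homeobox gene, 25 and 13 in exons and 1 and 35 in introns. In the other direction, Kmt2e, a PHD and SET domain protein, had 21 and 0 in introns and 27 and 23 in exons, and Dhx30, an RNA helicase, 18 and 0 in introns and 63 and 42 in exons. Rnf213, a large ubiquitin ligase on chromosome 11, had 36 and 0 in introns and 238 and 114 in exons. In Slc2a1 the NPC introns held 96 WT and 48 ΔZF1 sites, so the surplus of ΔZF1 intron sites was not seen there. No test between the lists was made for these genes.

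Coding-exon sites in exons over 1000 nt made up 8.54% of WT, 10.7% of ΔZF1 and 11.1% of noXL coding-exon sites. Intron sites within 100 nt of a donor made up 5.00% of WT, 5.90% of ΔZF1 and 6.07% of noXL intron sites, and within 100 nt of an acceptor 6.18%, 7.11% and 7.30%. In each of these measures the ΔZF1 list lay between the WT list and the list without UV.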
